A study of Mus musculus with 6 samples.

Results

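The clustered protocadherins are cell-surface adhesion proteins encoded by 3 neighbouring gene clusters, alpha, beta and gamma, on mouse chromosome 18. Members were all rows of the deposited gene table whose name is Pcdha, Pcdhac, Pcdhb, Pcdhga, Pcdhgb or Pcdhgc followed by a number. This gave 58 rows of 34745, with 14 in the alpha, 22 in the beta and 22 in the gamma cluster. All 58 passed the filter on low counts and were among the 15267 genes tested.

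A neuron switches on a small and partly random choice of alpha, beta and gamma promoters, each of which lies before its own variable exon. The chosen alpha or gamma variable exon is spliced to constant exons that every member of that cluster shares, whereas beta genes have no constant exon. The proteins pair on the membrane and bind only matching sets on other membranes, so that branches of the same neuron recognise and avoid each other. The C-type members (Pcdhac1, Pcdhac2, Pcdhgc3, Pcdhgc4 and Pcdhgc5) lie at the ends of the alpha and gamma clusters and are not chosen at random in the same way. The promoters are opened by the looping factors CTCF and cohesin and are held silent by DNA methylation.

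RNA came from the dorsal striatum, a forebrain region made mostly of spiny projection neurons, of mice aged 1 year. The groups were 3 libraries from mice heterozygous for Ash1l (Ash1l het) and 3 from wild type mice (WT). Ash1l is a histone methyltransferase; the labels do not describe the mutant allele. All mice were C57BL/6 and received no treatment that the labels name, and polyadenylated RNA was read with a stranded kit. The labels do not state that the libraries come from different animals. The p-values therefore refer to the variation among these libraries, part of which may be technical.

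Library totals ran from 12080663 to 18798694 counts, and the members held 0.122 to 0.142% of them. The labels describe male mice, yet all 6 libraries held Xist at 1956 to 2957 CPM (counts divided by the TMM-scaled library size, on the usual CPM scale), and 4 Y-linked genes summed to 0 counts in all libraries but WT 1, which had 1 count. Ash1l itself was lower in all Ash1l het libraries (281, 198 and 253 CPM) than in any WT library (308, 295 and 293 CPM). The log2 fold change of -0.29 (SE 0.13) was not called by edgeR's quasi-likelihood test (Benjamini-Hochberg adjusted p = 0.858). Permuting the 6 libraries exactly (two-sided) returned p = 0.1, the lowest value that groups of this size permit. Without Ash1l het 2 the log2 fold change was -0.16. Since the labels do not describe the allele, a count over the whole gene is a limited check of the genotype. Summed markers of spiny projection neurons were abundant, at 7991 to 9721 CPM in Ash1l het and 8472 to 9533 CPM in WT. Of these 12 markers, 3 were higher and 9 lower in Ash1l het by sign, with a median log2 fold change of -0.11, and 0 were called.

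On GRCm38 the alpha cluster spans positions 36930184 to 37187661 of chromosome 18, the beta cluster 37264938 to 37524479 and the gamma cluster 37661793 to 37841873. All 58 rows lie on the plus strand, and each matched the GENCODE M21 gene of its identifier in start and end. In the alpha cluster 38.0 to 54.9% of a row's exonic bases (median 53.4%) also belong to another row. The corresponding share in the gamma cluster was 27.8 to 66.8% (median 44.7%). In the beta cluster only Pcdhb21 and Pcdhb22 overlap, for up to 9.67% of their exonic bases. The sources used here do not say how reads from shared exons were assigned. The split of counts among alpha or gamma members is therefore uncertain, and the sum of each cluster is given beside it.

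Of the 56 names, 2 are used by 2 rows each. Pcdha11 names ENSMUSG00000007440, which starts at 37005203 where RefSeq places Pcdha10, and ENSMUSG00000102206, which starts at 37010712. Pcdhga8 names ENSMUSG00000103897 and also ENSMUSG00000023036, which starts at 37815079 and is Pcdhgc4 in both GENCODE and RefSeq. The latter row is called Pcdhgc4 here. The Pcdha11 rows are told apart by identifier.

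No clustered protocadherin differed between Ash1l het and WT past the threshold. edgeR called 0 of 58 rows at an adjusted p under 0.05, limma-voom called 0 of 58, and DESeq2 called 0 of 57 (it gave no p for Pcdhgb4), against 0.0131% of all genes tested by edgeR (2 of 15267, both higher in Ash1l het). At an unadjusted p under 0.05 edgeR marked 2 of 58 rows, or 3.45%, which is below the 5.78% of all genes tested. DESeq2 marked 5 (8.77%, against 3.75% of the 21687 genes it tested) and limma-voom 3 (5.17%, against 5.91%). DESeq2 was run without the filter on low counts. Its share of all genes therefore includes many rows of low counts that edgeR left out, and is not matched to the members. The number marked by edgeR depended on single libraries, and so did the share of all genes tested in the same fit. It was 8 rows without Ash1l het 3 (13.8%, against 10.9%), 7 without WT 1 (12.1%, against 4.41%) and 5 without Ash1l het 1 (8.62%, against 5.50%). It was 1 row without Ash1l het 2 (1.72%, against 6.42%) and 1 without WT 3 (1.72%, against 3.58%). No row was called in any of these fits.

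The sign of the fold change was negative in 35 of 58 rows (60.3%, against 48.6% of all genes tested). The median log2 fold change was -0.06 over the members and 0.01 over all genes tested. It was -0.12 in the alpha cluster (4 rows positive, 10 negative), -0.04 in the beta cluster (10 and 12) and -0.06 in the gamma cluster (9 and 13). The groups did not overlap in 2 of 58 rows (3.45%, against 11.7% of all genes tested), namely Pcdhgc3, lower in Ash1l het (5.53% of all genes tested were lower without overlap), and the Pcdha11 row ENSMUSG00000007440, higher in Ash1l het (6.18%). In bulk tissue, fewer cells of a type and less RNA per cell cannot be told apart.

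**Figure D1:**
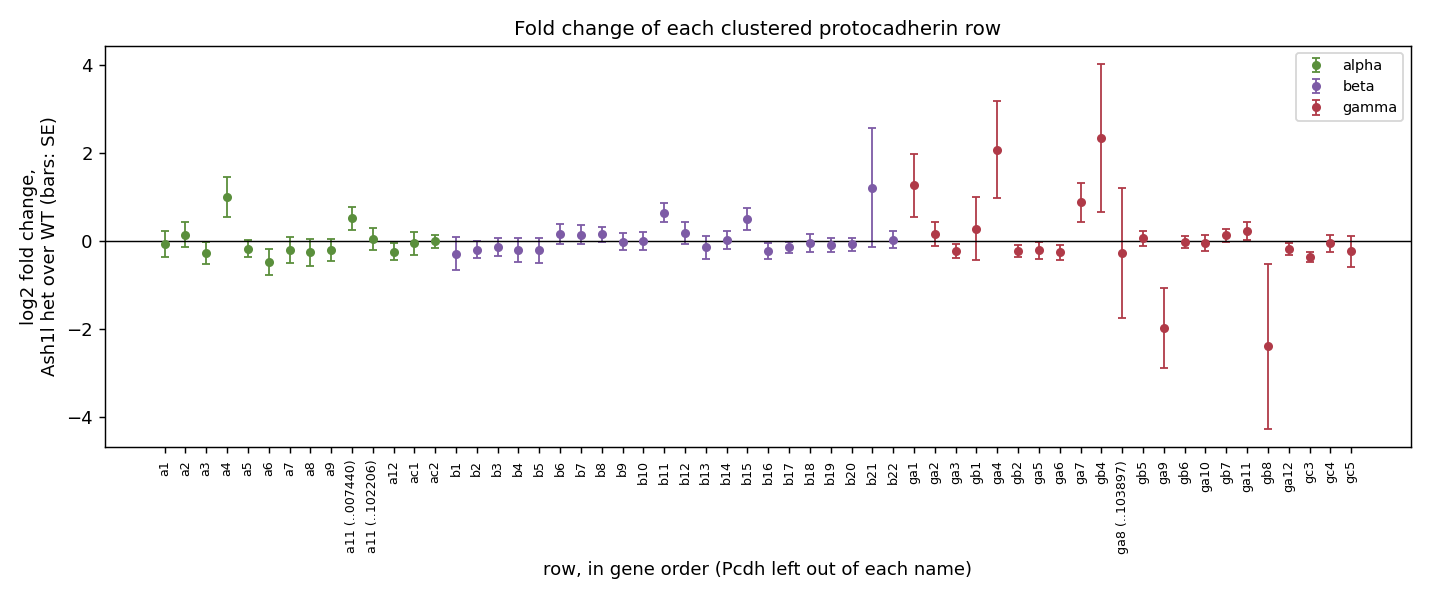
Log2 fold change of Ash1l het over WT for each of the 58 rows in gene order (x axis), with bars for the SE of the edgeR fit; green is alpha, purple beta and red gamma. Most rows sit within 1 log2 unit of 0, and the widest bars belong to Pcdhgb8 at -2.40 and Pcdhgb4 at 2.33.

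The expressed repertoire was broad, with the gamma cluster highest. Of all member counts, gamma rows held 67.6 to 77.3% in the 6 libraries, beta rows 17.5 to 26.4% and alpha rows 5.17 to 6.13%. Levels between genes are compared on the deposited FPKM, which divides by length. Mean FPKM over the 6 libraries ran from 0.205 to 4.93 in alpha rows (median 0.447), from 0.286 to 5.89 in beta rows (median 2.52) and from 0.767 to 36.3 in gamma rows (median 6.05). For 49 of 58 rows the length behind the FPKM equals the summed length of all annotated transcripts, within 1 base, and for 21 of the 22 rows with several transcripts (all but Pcdhgb8) it exceeds the length of the merged exons, which gives a lower FPKM than a merged gene model would. Pcdhgc3, with 3 transcripts, had a mean FPKM of 9.83 but 17.1 CPM per kilobase of merged exons. Its rank in the gamma cluster moved from 4 to 2.

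**Figure D2:**
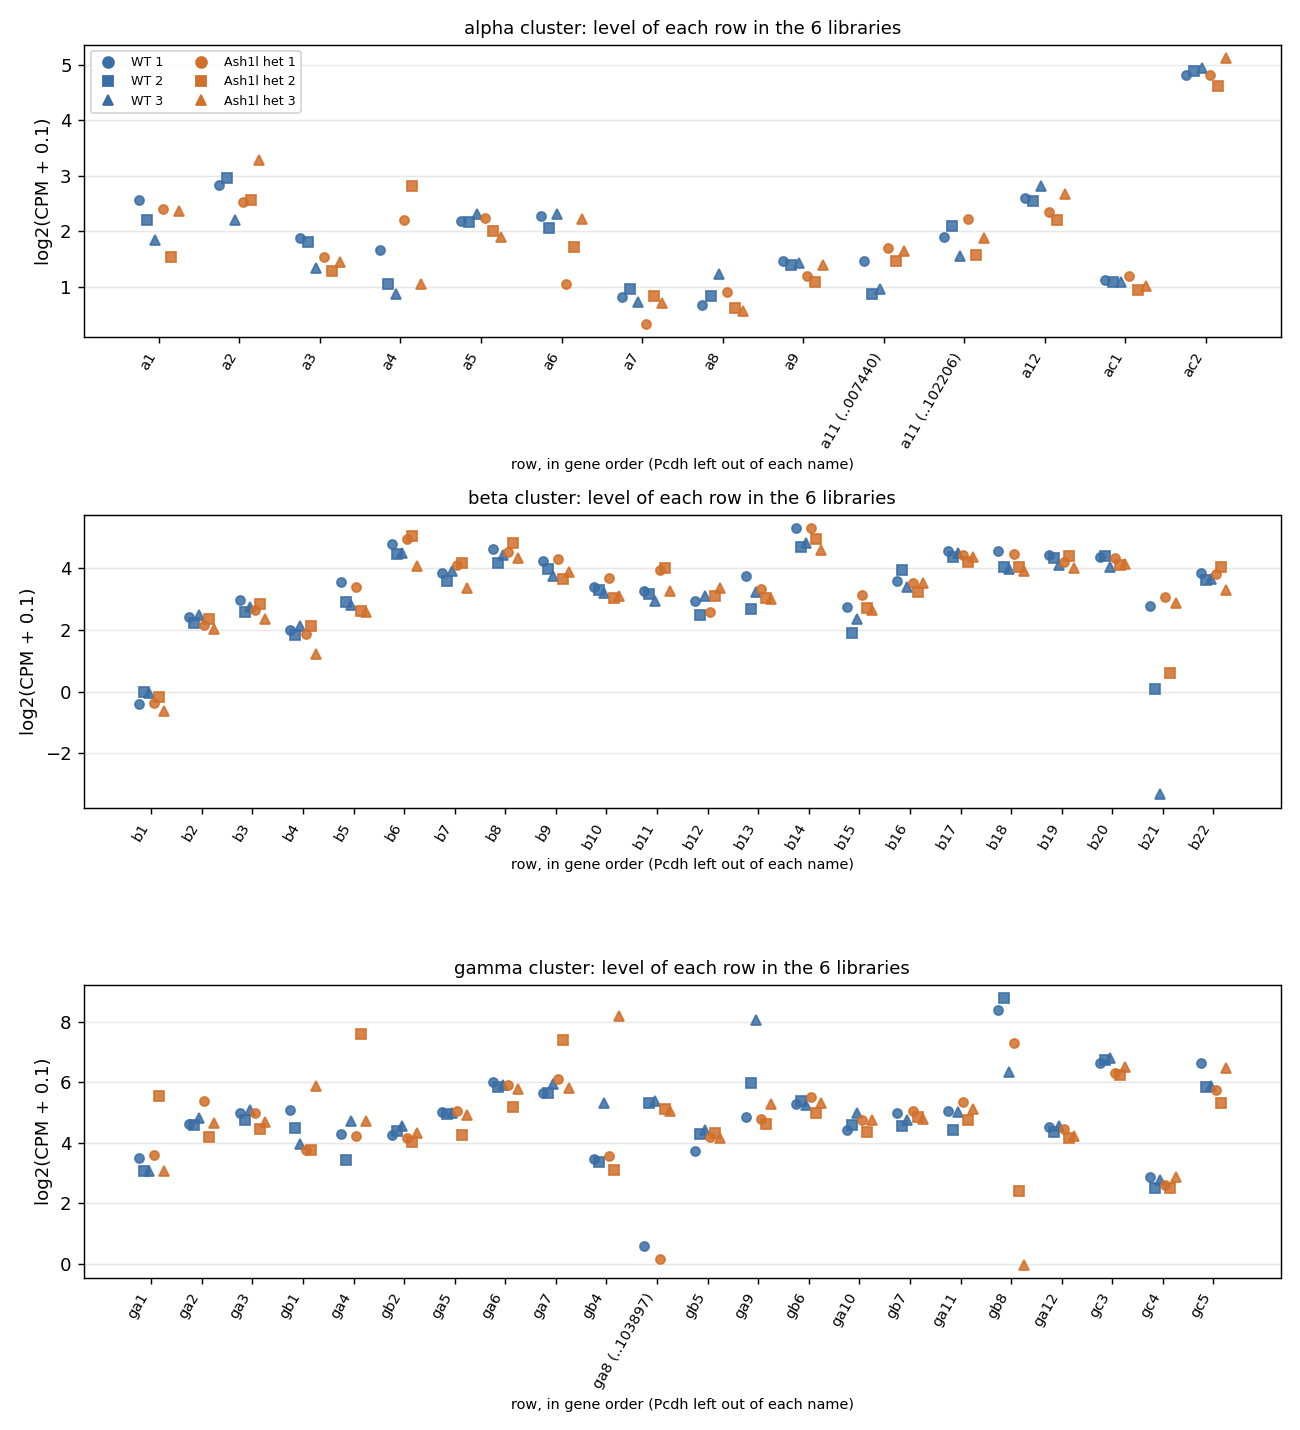
Level of every row as log2(CPM + 0.1) on the y axis, in gene order on the x axis, for the alpha, beta and gamma clusters; blue is WT, orange is Ash1l het, and the symbol gives the library number. Alpha and beta rows cluster tightly apart from Pcdhb21 and Pcdha4, whereas Pcdhga1, Pcdhga4, Pcdhgb4, Pcdhga8, Pcdhga9 and Pcdhgb8 each hold 1 or more libraries far from the others.

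In the alpha cluster, Pcdhac2 took the largest share of the cluster's counts in all 6 libraries, from 36.4% (95% Wilson interval 33.4 to 39.5) in WT 1 to 42.1% (39.6 to 44.6) in Ash1l het 3. These intervals, like every floor below, cover counting error only. Pcdhac2 stood at 27.9, 24.4 and 34.7 CPM in Ash1l het and at 27.9, 29.5 and 30.5 CPM in WT, so the WT values lie within the Ash1l het range. Its log2 fold change was -0.01 (95% interval -0.34 to 0.31). Pcdhac1, the other alpha C-type member, stood at 2.18, 1.82 and 1.92 CPM against 2.07, 2.03 and 2.03 CPM. It was the steadiest of all 58 rows over the 6 libraries, with the highest library 1.19 times the lowest.

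Among the remaining alpha rows, Pcdha12 and Pcdha5 followed Pcdhac2 in mean FPKM, at 1.07 and 0.827. Pcdha12 stood at 4.96, 4.50 and 6.27 CPM in Ash1l het and 5.96, 5.74 and 6.95 CPM in WT. Pcdha5 stood at 4.62, 3.91 and 3.63 CPM against 4.47, 4.36 and 4.86 CPM. Both pairs of groups overlapped, and the log2 fold changes were -0.24 (SE 0.20) and -0.17 (SE 0.20).

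The smallest unadjusted p in the alpha cluster belonged to Pcdha4. Its CPM was 4.49, 6.97 and 1.98 in Ash1l het and 3.06, 1.97 and 1.74 in WT. Ash1l het 1 and 2 were above all WT libraries and Ash1l het 3 was among them, with a log2 fold change of 1.00 (SE 0.45, edgeR quasi-likelihood adjusted p = 0.858), and 0.52 without Ash1l het 2. The Pcdha11 row ENSMUSG00000007440 stood at 3.13, 2.67 and 3.02 CPM in Ash1l het and 2.65, 1.73 and 1.85 CPM in WT. The lowest Ash1l het library and the highest WT library nearly touched, with a log2 fold change of 0.51, an SE of 0.27 and an adjusted p of 0.878 in edgeR. Pcdha6 stood at 1.97, 3.19 and 4.56 CPM against 4.72, 4.07 and 4.86 CPM, overlapping at the top of the Ash1l het range, with a log2 fold change of -0.48 (SE 0.30), which was -0.22 without Ash1l het 1 and -0.81 without Ash1l het 3. All other alpha rows had log2 fold changes between -0.27 and 0.14.

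The beta genes have no constant exon, so that, apart from Pcdhb21 and Pcdhb22, no annotated exon is shared between rows. Members still resemble each other in sequence, and how reads that match several members were counted is not stated. Pcdhb14 held the largest share of beta counts in 5 libraries, at 9.90 to 12.2%, and Pcdhb6 held 11.1% in Ash1l het 2. Per length the leading rows were Pcdhb8, Pcdhb6 and Pcdhb20, with mean FPKM of 5.89, 5.74 and 5.21. Pcdhb8 stood at 22.6, 28.0 and 19.7 CPM in Ash1l het and 24.3, 17.8 and 21.3 CPM in WT. Pcdhb6 stood at 30.5, 32.3 and 16.8 CPM against 27.1, 21.8 and 22.5 CPM, with the 2 highest libraries and the lowest all in Ash1l het. Pcdhb20 stood at 19.8, 17.1 and 17.3 CPM against 20.4, 20.7 and 16.1 CPM. All 3 pairs of groups overlapped, and the log2 fold change was 0.15 (SE 0.17) for Pcdhb8, 0.16 (SE 0.24) for Pcdhb6 and -0.08 (SE 0.14) for Pcdhb20.

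Pcdhb11 was the beta row with the smallest unadjusted p. It stood at 15.0, 15.9 and 9.51 CPM in Ash1l het and at 9.52, 8.79 and 7.58 CPM in WT. Ash1l het 1 and 2 were above every WT library and Ash1l het 3 was level with WT 1. The log2 fold change was 0.64 (SE 0.21, 95% interval 0.16 to 1.12), with an edgeR quasi-likelihood adjusted p of 0.841.

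Pcdhb15 stood at 8.63, 6.45 and 6.16 CPM in Ash1l het and 6.62, 3.59 and 4.98 CPM in WT, with a log2 fold change of 0.49 (SE 0.25). Only WT 1 reached into its Ash1l het range. Pcdhb16 stood at 11.4, 9.32 and 11.3 CPM against 11.9, 15.1 and 10.4 CPM, with overlapping groups and a log2 fold change of -0.23 (SE 0.18). The lowest mean level in the beta cluster was that of Pcdhb1, whose mean FPKM was 0.286.

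Pcdhb21 was the beta row that varied most, and it is named here after its values were seen. Its counts were 120, 22 and 131 in Ash1l het and 82, 16 and 0 in WT. Against a floor of 3 counts in WT 3, its highest library, Ash1l het 1, was at least 47.0-fold higher in CPM. Both genotypes held a library near 1 CPM and a library near 7 CPM, and the log2 fold change of 1.21 had an SE of 1.36. The other 21 beta rows varied by at most 2.41 times between the highest and lowest library.

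Some of the variable gamma members, the Pcdhga and Pcdhgb rows, varied widely between libraries of the same genotype. Of these 19 rows, 8 had a highest library at least 3 times the lowest and 11 did not (median 1.92 times). Pcdhgb8 had the highest mean FPKM of all members, 36.3. Its CPM was 157, 5.21 and 0.880 in Ash1l het and 335, 440 and 81.5 in WT, from 2305, 80 and 16 counts against 4052, 7353 and 1407. The highest library thus held 499.7 times the CPM of the lowest. WT 3 lay below Ash1l het 1, so the groups overlapped, and the log2 fold change of -2.40 (SE 1.88, 95% interval -7.39 to 2.59) was not called (edgeR adjusted p = 0.901). The size depended on the fit: it was -6.59 without Ash1l het 1, -4.83 with limma-voom, -4.52 with the replicate block and -4.39 on log2(FPKM + 0.1).

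Pcdhga9 was high in a single library, WT 3. It stood at 269 CPM there, at 28.7 and 63.2 CPM in WT 1 and WT 2, and at 27.7, 24.8 and 39.0 CPM in Ash1l het. Its log2 fold change of -1.98 had an SE of 0.91 and an adjusted p of 0.878 in edgeR, and became -0.60 in the fit without WT 3. Pcdhga7 was high in Ash1l het 2, at 171 CPM, with 69.1 and 56.7 CPM in Ash1l het 1 and 3 and 49.9, 49.6 and 61.2 CPM in WT. Its log2 fold change of 0.88 (SE 0.44) was 0.23 in the fit without Ash1l het 2. Pcdhga6 was steady apart from a low value in the same Ash1l het 2: it stood at 59.8, 36.3 and 55.0 CPM in Ash1l het and 64.1, 57.0 and 60.1 CPM in WT, with a log2 fold change of -0.26 (SE 0.17).

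A highest library at least 5 times the lowest was found in 7 of 58 members (12.1%, against 2.91% of all genes tested). Among genes with a mean of at least 10 CPM the share was 0.775%. That set leaves out many members, Pcdhb21 among them, so the 12.1% is not matched to it in level. The limit of 5 times was chosen after the values were seen. The 7 were Pcdhb21 and 6 of the 22 gamma rows, namely Pcdhga1, Pcdhga4, Pcdhgb4, Pcdhga8 (ENSMUSG00000103897), Pcdhga9 and Pcdhgb8. Just inside the limit was Pcdhga1 at 5.67 times, and just outside it were Pcdhgb1 at 4.44, Pcdha4 at 4.01 and Pcdhga7 at 3.44 times.

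Among those named after their values were seen, Pcdhga4 counts were 273, 2963 and 475 in Ash1l het against 234, 178 and 454 in WT. Pcdhga1 counts were 176, 715 and 152 against 136, 140 and 142. Both were thus high in Ash1l het 2, the library in which Pcdhga7 and Pcdha4 were also at their highest. Pcdhgb4 counts were 172, 131 and 5279 in Ash1l het against 131, 171 and 694 in WT. Ash1l het 3 stood far above the rest, and WT 3 was the highest WT library. Pcdhga8 (ENSMUSG00000103897) went the other way: its counts were 15, 531 and 606 in Ash1l het against 17, 665 and 715 in WT. It was therefore low in library 1 of each genotype, with a log2 fold change of -0.27 (SE 1.48).

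The gamma row that led the cluster changed from library to library. Pcdhgb8 held 32.6% (95% Wilson interval 31.8 to 33.5) of gamma counts in WT 1 and 39.2% (38.5 to 39.9) in WT 2. In WT 3 the leading row was Pcdhga9, with 25.1% (24.5 to 25.7). In Ash1l het 1 it was Pcdhgb8 with 19.1% (18.4 to 19.9), in Ash1l het 2 Pcdhga4 with 22.1% (21.4 to 22.8) followed by Pcdhga7 with 19.5%, and in Ash1l het 3 Pcdhgb4 with 28.4% (27.8 to 29.1). Thus 4 different rows led in 6 libraries, and a single row led in both genotypes.

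**Figure D3:**
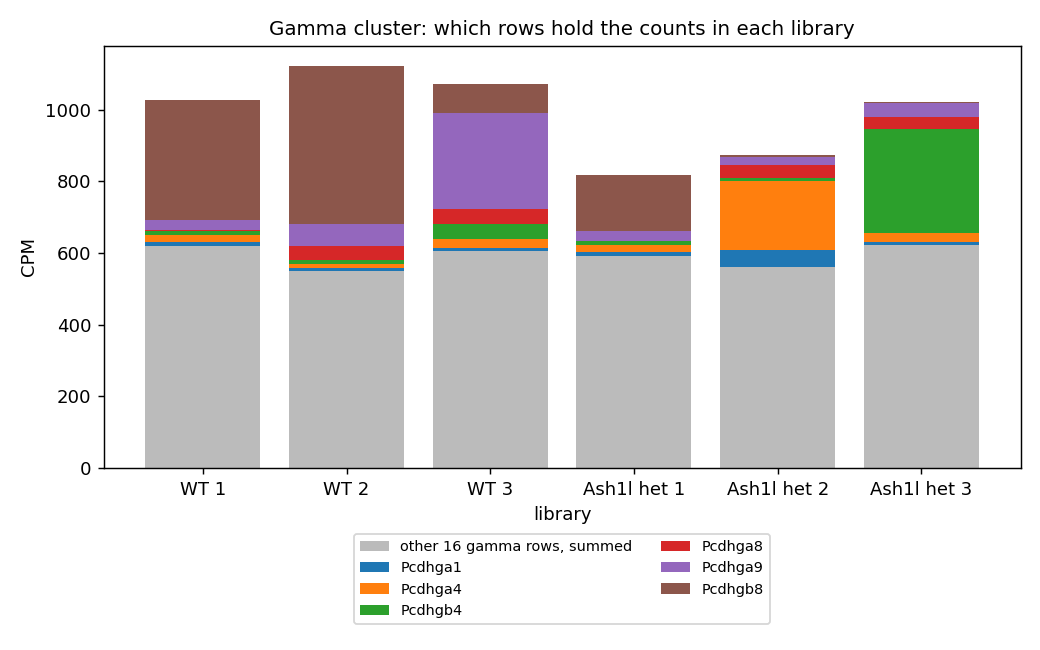
Stacked bars of the gamma cluster in each library, in CPM from 0, with the 6 rows that varied at least 5-fold in colour and the other 16 rows summed in grey. The grey part reaches 550 to 623 CPM in all 6 libraries, and the colour that fills the rest differs, with Pcdhgb8 in WT 1, WT 2 and Ash1l het 1, Pcdhga9 in WT 3, Pcdhga4 in Ash1l het 2 and Pcdhgb4 in Ash1l het 3.

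Among the gamma C-type members, the highest library was 1.48 times the lowest for Pcdhgc3, 1.28 times for Pcdhgc4 and 2.48 times for Pcdhgc5. Pcdhgc3 had the smallest unadjusted p of all members. It stood at 80.1, 75.4 and 91.3 CPM in Ash1l het and at 98.9, 107 and 112 CPM in WT, and every Ash1l het library lay below every WT library. Means were 82.3 ± 8.13 CPM (SD, n = 3) and 106 ± 6.59 CPM (SD, n = 3). The log2 fold change of -0.36 (SE 0.11, 95% interval -0.61 to -0.12) was not called (edgeR quasi-likelihood adjusted p = 0.801). It lay between -0.45 and -0.31 when each library was left out in turn.

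Pcdhgc5 stood at 53.1, 39.9 and 88.4 CPM in Ash1l het and 98.9, 56.9 and 59.3 CPM in WT, with a high library in each genotype. Pcdhgc4, a member required for interneuron survival in mice, was the lowest gamma row per length, with a mean FPKM of 0.767. It stood at 5.92, 5.60 and 7.15 CPM against 7.12, 5.62 and 6.77 CPM. Log2 fold changes were -0.24 (SE 0.35) for Pcdhgc5 and -0.06 (SE 0.19) for Pcdhgc4, and both pairs of groups overlapped. All 5 C-type members thus had negative fold changes, of which those of Pcdhac1, Pcdhac2 and Pcdhgc4 were within 0.1 of 0, and the sign of all but that of Pcdhgc3 changed when some single library was left out.

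Summed over each cluster, alpha and beta levels were close in both genotypes. A sum removes the split of reads among members, though not any loss or repeated counting of shared reads. The alpha sum was 72.5, 66.4 and 82.5 CPM in Ash1l het and 76.7, 75.3 and 72.4 CPM in WT. The beta sum was 320, 290.3 and 241 CPM against 321, 254 and 257 CPM. Both overlapped, and the log2 ratios of the means were -0.02 and 0.03, with pooled SDs over libraries of 0.12 and 0.20 on the log2 scale. No p is given for a sum over members.

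The gamma sum was lower in Ash1l het, at 819, 874 and 1020 CPM, than in WT, at 1028, 1122 and 1072 CPM. The groups did not overlap, although the highest Ash1l het library and the lowest WT library were 1020 and 1028 CPM. Means were 905 ± 104 CPM (SD, n = 3) and 1074 ± 47.1 CPM (SD, n = 3), a log2 ratio of -0.25 against a pooled SD of 0.12. The groups also did not overlap under the other scalings or on the summed FPKM, where the highest Ash1l het library was 147 and the lowest WT library 166. All of these rest on the same counts. Among single genes tested, 5.53% were lower in Ash1l het without overlap. The sum of all 58 members was 1262 ± 71.9 CPM (SD, n = 3) against 1426 ± 24.7 CPM (SD, n = 3), a log2 ratio of -0.18, again without overlap. Gamma rows held most of it. Between the group means, Pcdhgb8 alone was lower in Ash1l het by more CPM than the gamma sum or the sum of all members. The other gamma rows together were thus not lower in Ash1l het on average. Pcdhgb8 was not called, and it was singled out here after its values were seen. The beta sum was lowest in Ash1l het 3 (241 CPM) and highest in WT 1 (321 CPM), the libraries in which the gamma groups came closest.

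Gamma rows were also summed apart by their spread over the 6 libraries. This split uses both genotypes and a limit chosen after the values were seen, so a row that differs between the genotypes tends to fall among the wide ones, and the sums are a description only. The 6 rows with at least a 5-fold spread summed to 228, 313 and 398 CPM in Ash1l het and 407, 572 and 467 CPM in WT, a log2 ratio of -0.62 with a pooled SD of 0.34. The other 16 gamma rows summed to 591, 562 and 623 CPM against 621, 550.1 and 605 CPM, a log2 ratio of -0.0007. That near-equality depended on the limit chosen: at a limit of 3-fold, which also leaves out Pcdhgb1 and Pcdhga7, the 14 remaining rows summed to 509, 378 and 507 CPM against 537, 478 and 529 CPM, a log2 ratio of -0.15. Ash1l het 2 was the lowest library of those 14 rows.

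By class, the 3 gamma C-type rows summed to 149 ± 34.0 CPM (SD, n = 3) in Ash1l het and 184 ± 18.5 CPM (SD, n = 3) in WT. The 19 Pcdhga and Pcdhgb rows summed to 756 ± 77.0 CPM (SD, n = 3) and 890 ± 64.8 CPM (SD, n = 3). The log2 ratios were -0.31 and -0.24 and both pairs of groups overlapped. In the alpha cluster the 2 C-type rows and the other 12 rows each had a log2 ratio of -0.02.

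**Figure D4:**
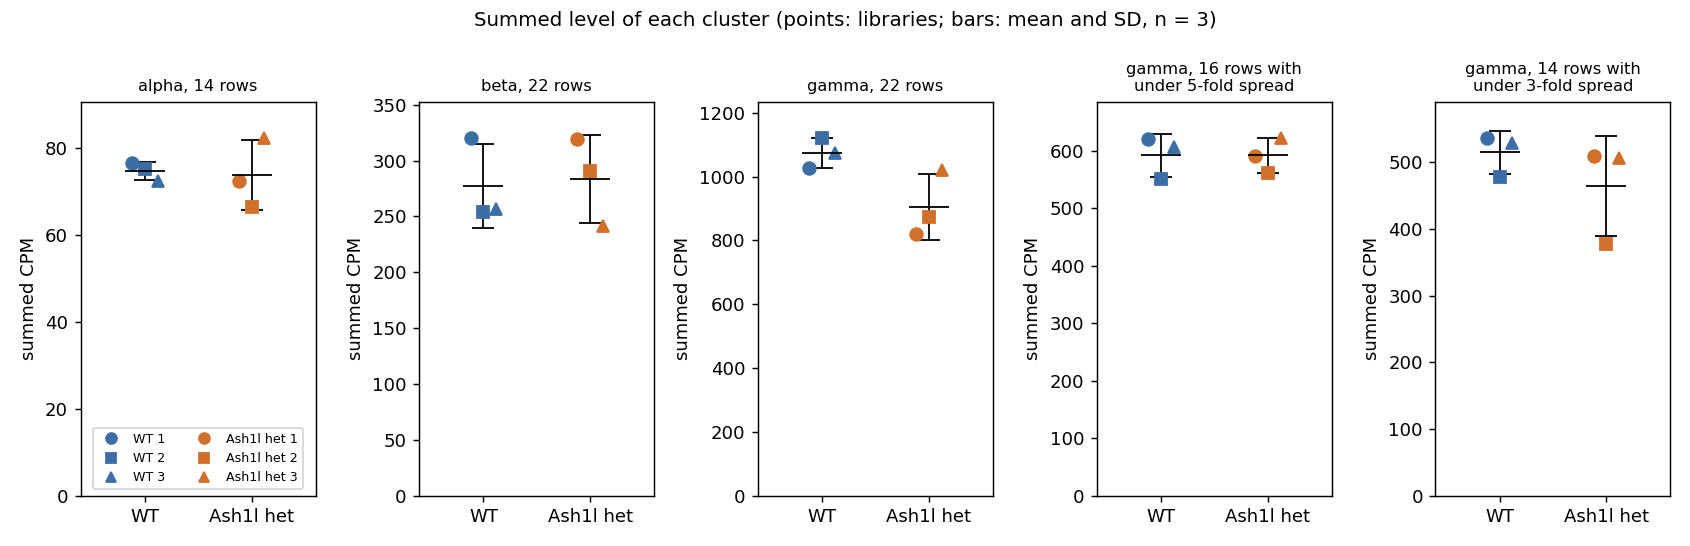
Summed CPM (y axis from 0) of the alpha, beta and gamma clusters and of 2 subsets of gamma rows, by genotype; points are libraries and bars are the mean and SD of 3 libraries. Alpha and beta points of the genotypes mix, all 3 Ash1l het points lie below the WT points in the gamma panel, and in the 16-row and 14-row panels they mix again.

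The part of shared exons in the spread was not tested, and the values are given side by side. Pcdhga4 had the largest shared part of all rows (66.8%) and a spread of 18.1 times. Alpha rows, with 38.0 to 54.9% shared, varied by at most 4.01 times. Pcdhgb8 shares 45.9% of its exonic bases, close to the gamma median. Pcdhb21 shares 9.67% with Pcdhb22, whose own spread was 1.67 times.

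**Figure D5:**
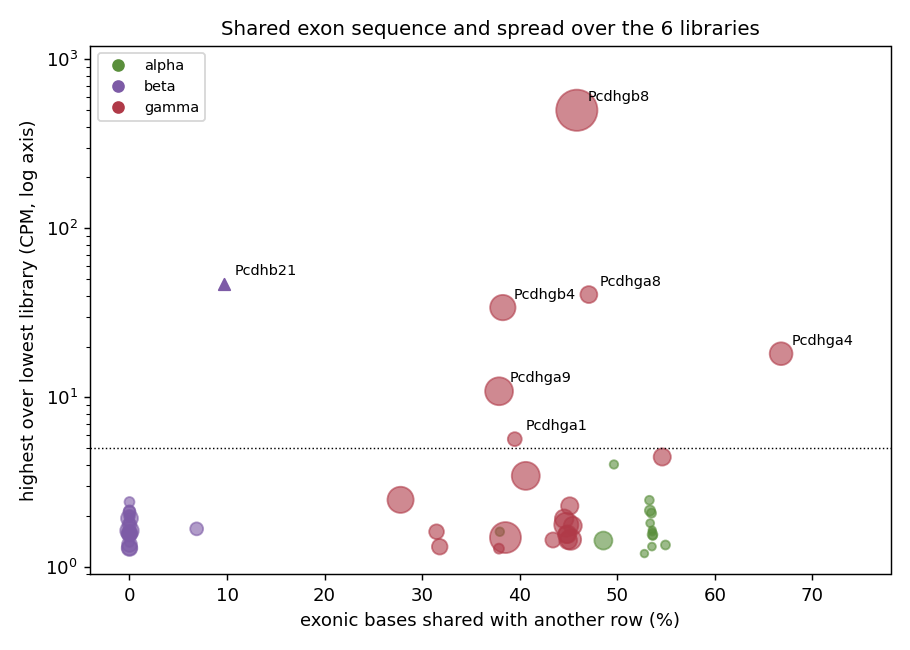
Share of each row's exonic bases that belongs to another row (x axis, percent) against its highest library over its lowest (y axis, log scale); point size grows with mean CPM, the dotted line marks 5-fold and the triangle for Pcdhb21 is a lower bound. Gamma rows with about the same shared part lie both near 1 and far above the line, up to 499.7 for Pcdhgb8.

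Genes that act on the clusters were not called either. Since edgeR called only 0.0131% of all genes tested (2 of 15267), 0 calls in this list or those below say little about their genes. Of 12 architecture genes, which include Ctcf and the cohesin subunits and loaders that bring enhancers to protocadherin promoters, 0 were called (10 positive, 2 negative, median log2 fold change 0.08, against 0.01 over all genes tested). Smc3, a core cohesin subunit, was 81.4 ± 5.36 CPM (SD, n = 3) in Ash1l het and 69.2 ± 3.26 CPM (SD, n = 3) in WT, without overlap. Its log2 fold change was 0.24, with an SE of 0.10 and an adjusted p of 0.857 in edgeR. The fold change on the log2 scale was 0.13 (SE 0.11) for Stag1, another cohesin subunit, and 0.18 (SE 0.14) for Nipbl, the cohesin loader.

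Of 14 methylation and silencing genes, 0 were called (3 positive, 11 negative, median -0.06). Dnmt3b, the DNA methyltransferase that methylates the clusters in the embryo, was low, at 0.726 ± 0.295 CPM (SD, n = 3) against 0.465 ± 0.260 CPM (SD, n = 3). Tet2 and Tet3 oxidise methylated cytosine. The log2 fold change was 0.21 (SE 0.12) for Tet2 and -0.16 (SE 0.10) for Tet3.

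Downstream of the receptors, 0 of 20 cytoplasmic partners and effectors were called (6 positive, 14 negative, median -0.07). Ret, a receptor tyrosine kinase that binds alpha and gamma protocadherins, was 3.26 ± 0.954 CPM (SD, n = 3) in Ash1l het and 1.76 ± 0.241 CPM (SD, n = 3) in WT, without overlap. Its log2 fold change was 0.88, with an SE of 0.30 and an adjusted p of 0.857 in edgeR. Marcks, a substrate of protein kinase C in the gamma protocadherin pathway of dendrite growth, was 74.6 ± 9.71 CPM (SD, n = 3) against 88.9 ± 4.13 CPM (SD, n = 3), with a log2 fold change of -0.25 (SE 0.12). Abi2, a subunit of the WAVE actin-regulating complex, had -0.33 (SE 0.17). Of 7 genes that shed and cleave protocadherins, the sheddase Adam10 and the gamma-secretase subunits, 0 were called (3 positive, 4 negative, median -0.05). Among the gamma-secretase genes, the log2 fold change was -0.22 (SE 0.16) for Psen2 and 0.14 (SE 0.12) for Aph1b.

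Protocadherins encoded outside the clusters were mostly lower by sign, against 48.6% of all genes tested. Signs of genes measured in the same libraries are not independent. Of 12 listed, 11 were tested (Pcdh12 was not) and 0 were called, with 2 positive, 9 negative and a median log2 fold change of -0.22. Pcdh19, an X-linked adhesion protein, was 6.97 ± 0.919 CPM (SD, n = 3) in Ash1l het and 11.03 ± 0.516 CPM (SD, n = 3) in WT. Its groups did not overlap, and its log2 fold change of -0.66 (SE 0.16) was not called (edgeR adjusted p = 0.741). Pcdh10 was 157 ± 15.0 CPM (SD, n = 3) against 186 ± 23.4 CPM (SD, n = 3), without overlap, at -0.24 (SE 0.12). Pcdh1 was 129 ± 29.3 CPM (SD, n = 3) against 164 ± 9.73 CPM (SD, n = 3), overlapping, at -0.35 (SE 0.16).

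Genes flanking or lying between the clusters gave 0 calls among 17 tested of 18 (Slc25a2 was not tested), with 11 positive, 6 negative and a median of 0.07. The log2 fold change was 0.24 (SE 0.16) for Wdr55 and 0.18 (SE 0.12) for Zmat2. Pcdh1 and Hdac3 stand in 2 of these lists each. An unadjusted p under 0.05 was found for 3 of the 79 genes tested in the 6 lists (Smc3, Ret and Pcdh19), or 3.80%, below the 5.78% of all genes tested.

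Markers of other cells were read beside the members. Astrocyte markers summed to 4797, 4475 and 3121 CPM in Ash1l het and 4461, 3689 and 3488 CPM in WT, with overlap. Of these 8 markers, 3 were higher and 5 lower by sign, with a median log2 fold change of -0.03. Gfap, the marker among them with the largest fold change, stood at 412, 733 and 104 CPM against 154, 62.1 and 83.7 CPM. The beta sum was highest in the same 3 libraries as this astrocyte sum (Ash1l het 1, Ash1l het 2 and WT 1), which also had the lowest totals. The part of astrocytes or of depth in it was not tested. Summed globins, a sign of blood, were higher in every Ash1l het library. They stood at 113, 96.8 and 53.5 CPM in Ash1l het against 22.9, 33.8 and 21.7 CPM in WT. The gamma sum and Pcdhgc3 went in the opposite direction, lower in every Ash1l het library than in any WT library. The part of blood in those values was not tested. The 3 serotonergic markers summed to 0 to 0.330 CPM in Ash1l het and 0.658 to 0.868 CPM in WT, at or near 0 in all libraries. Summed markers of oligodendrocytes and their precursors, microglia, endothelial and mural cells, choroid plexus, cortical glutamatergic neurons and meningeal fibroblasts overlapped between the genotypes. Tested markers higher in Ash1l het by sign were, in that order, 6 of 6, 2 of 4, 3 of 6, 5 of 6, 2 of 3, 5 of 6 and 0 of 4, and 0 were called. Overlapping sums do not show that the cell composition was equal.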

How the data were processed

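RNA-seq of 6 libraries was analysed from the deposited table, which holds raw read counts and FPKM per gene, and the 6 files of single libraries repeat its counts. The authors' FPKM divides these counts by a gene length and the library total. The tools in the submitters' processing notes are HISAT2, StringTie, edgeR, FastQC and CASAVA, with build GRCm38. Their roles, versions and settings, strand use and the handling of shared exons are stated in none of the sources used.

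Every row was fitted in R 4.3.3 with edgeR 4.0.16 (robust quasi-likelihood test, TMM scaling, default filter with a minimum count of 10, genotype alone as term), and p-values were Benjamini-Hochberg adjusted over 15267 genes at a threshold of 0.05. The fit was tested on simulated counts whose variation between libraries was set by expression level alone. That simulation does not cover rows of unusually wide spread such as Pcdhgb8. Cluster sums are member counts over TMM-scaled library sizes. The alternatives were DESeq2 1.42.0, limma-voom and limma-trend on log2(FPKM + 0.1 or 1) (limma 3.58.1), other scalings and filters, a replicate block and each library left out.

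Members and lists were chosen with earlier results of these data known. Named with values are, per cluster, the 3 rows of highest mean FPKM and the 3 of smallest p, all C-type members, Ash1l, and up to 3 genes of smallest p per pathway list; others are marked. Marker lists are given as sums, with Gfap and the globins. The values of 1 gene that this rule names are not reported here.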

Additional observations from a re-analysis of the deposited data

How the results depend on the processing

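No member was called among those tested in the 15 alternative fits, which were 57 of 58 with DESeq2 and with the stricter filter, 48 on the log2(FPKM) scales and 58 otherwise. Calls over all genes were 2 in the edgeR fit, 35 with DESeq2 and 1 to 13 with a library left out, and members with an unadjusted p under 0.05 were 2, 5 and 1 to 8. With the replicate number as a block, 4 members had such a p, no member was called, and the gamma log2 ratio was -0.25. Over all genes tested, same-numbered libraries did not deviate together (correlations 0.056, -0.075 and 0.011), so the numbers are not taken as pairs. Among the gamma rows of at least 5-fold spread, Pcdhga8 was low in library 1 of both genotypes. Pcdhgb4 and Pcdhga9 were highest in library 3 of both. Pcdhga1, Pcdhga4 and Pcdhgb8 were highest in differently numbered libraries. Leaving out each library gave gamma log2 ratios of -0.35 to -0.18, beta ratios of -0.06 to 0.15 and alpha ratios of -0.11 to 0.05. By class these were -0.50 to -0.18 for gamma C-type rows, -0.31 to -0.17 for Pcdhga and Pcdhgb rows, -0.16 to 0.09 for alpha C-type rows and -0.08 to 0.03 for other alpha rows. Over the other scalings and the summed FPKM, gamma ratios were -0.32 to -0.21. Restricted to rows with under 5-fold spread, an alternative added after the data were seen, the gamma ratio was -0.0007; under 3-fold, also added, it was -0.15, and with the overlapping row Gm38182 added it was -0.25. Ash1l had log2 fold changes of -0.41 to -0.16 with a library left out. Signs reversed for Pcdhac2 on log2(FPKM + 0.1) at 0.011 and on log2(FPKM + 1) at 0.0099. With a library left out they reversed within ranges of -0.17 to 0.10 for Pcdhac2, -0.12 to 0.0015 for Pcdhac1, -0.011 to 0.40 for Pcdhb6, -0.17 to 0.01 for Pcdhgc4 and -0.63 to 0.057 for Pcdhgc5. Without a sign change, ranges were 0.29 to 0.72 for Pcdhb15, -0.35 to -0.07 for Pcdhb16, -0.40 to -0.15 for Pcdha12 and -0.40 to -0.07 for Pcdhga6. The cause was not tested. With 3 libraries a group, members with a wide spread had SEs up to 1.88 on the log2 scale, so a difference of a few-fold in Pcdhgb8, Pcdhgb4 or Pcdhga8 was not detectable.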

Other observations

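Other rows of the table lie within the protocadherin region. Gm38182, on the same strand as the gamma genes from position 37823879 to 37840382, shares 1530 bases with gamma exons and held 21, 21 and 144 counts (Ash1l het) against 0, 15 and 91 (WT), so that library 3 of each genotype was highest. Read-through models that start among the alpha genes and end in the gamma constant exons (Gm42416, Gm37013 and Gm37388) had 0 counts in all 6 libraries. On the opposite strand, Gm26672 overlaps 5187 bases of gamma exons and held 31, 31 and 22 counts (Ash1l het) against 17, 28 and 21 (WT). The use of strand in the authors' counting is not stated, so reads of such rows and of the members they overlap cannot be told apart. Taf7, which encodes a subunit of the general transcription factor TFIID and lies between the beta and gamma clusters, held 169, 153 and 186 counts (Ash1l het) against 130, 142 and 167 (WT). These rows were chosen for their position.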
